A study of Mus musculus with 8 samples.

Results

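The 40 listed genes of nucleolar ribosome biogenesis are followed here, of which 35 were measured. They were taken by gene symbol from a list, drawn up with earlier results of these data known, that spans RNA polymerase I, the small nucleolar ribonucleoproteins (snoRNPs), the small subunit processome, late small subunit maturation, large subunit assembly and the abundant nucleolar proteins. Each gene was read at 1 Affymetrix probe set, the one with the highest mean over the 8 arrays, and the 35 genes stand among 12394 genes measured in all. Of the 35, 15 had 1 probe set and 20 had more than 1. The listed genes Dkc1, Utp14a, Nob1, Npm3 and Mrto4 were not analysed here.

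Ribosomes are built in the nucleolus, where RNA polymerase I transcribes a long ribosomal RNA precursor. The snoRNPs guide chemical modification of that precursor, the box C/D particles through methylation and the box H/ACA particles through pseudouridylation. The small subunit processome folds and cleaves its small subunit end, and separate assembly factors build the large subunit around the remainder. Growing and dividing cells make many ribosomes, immature thymocytes pass through bursts of division, and the transcription factor Myc is known to activate many genes of this pathway.

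The study profiled CD4-CD8- cells of the mouse thymus and their counterparts in the spleen, which were tracked as recent emigrants from the thymus, to ask how activation of the aryl hydrocarbon receptor (AhR) bears on thymocyte emigration. Female C57BL/6 mice of 6 to 8 weeks were given the dioxin TCDD (2,3,7,8-tetrachlorodibenzo-p-dioxin), a potent AhR ligand, at 10 µg/kg in corn oil into the peritoneal cavity, or the oil alone. FITC, a fluorescent dye, was injected 5 days later into the thymus of every group, and 24 h after that the cells were sorted into lysis reagent and their amplified RNA was hybridised. The 4 groups were thymocytes after oil, thymocytes after TCDD, emigrants after oil and emigrants after TCDD, with 2 arrays each. No genotype other than C57BL/6 is given, the cells are a sorted fraction of mixed stages, and the labels leave unsaid if the 2 arrays stand for different animals or pools. The p-values therefore reflect array-to-array spread that could be technical in origin.

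Groups follow the sample titles, and several label fields disagree with them. The Treatment field of the first emigrant array after oil names TCDD, that of the second reads Dioxane 2, the Tissue field of some emigrants reads Thymus, the Treatment field gives TCDD as 10 nM, and the free text of the TCDD thymocytes names oil only. Cyp1b1, a direct AhR target, had log2 levels of 4.62 and 5.04 in oil thymocytes, 8.46 and 9.59 in TCDD thymocytes, 4.69 and 6.25 in oil emigrants and 6.87 and 8.36 in TCDD emigrants. Its TCDD arrays therefore lay above its oil arrays in both sources, and emigrants oil 1 had the lowest Cyp1b1 level of the 4 emigrant arrays. For the targets Tiparp, Nqo1, Ahrr and Cyp1a1 emigrants oil 1 lay above oil 2 (6.56 against 5.83, 4.87 against 4.64, 3.93 against 3.81 and 4.20 against 4.08) and below both TCDD emigrant arrays, the lower of which were at 7.74, 5.22, 5.19 and 4.22. Tiparp, Nqo1 and Ahrr were also higher after TCDD on both thymocyte arrays, whereas Cyp1a1 overlapped there, with the lower TCDD array at 3.78 below both oil arrays. Among defining T cell genes, Cd3d lay between 8.50 and 9.86 on all arrays, while Cd4 lay between 4.53 and 5.31, close to the array medians of 5.20 to 5.29 over all genes. Cd8b1 lay between 3.80 and 5.75. Cd8a was above the array median on 5 arrays. In the order oil 1, oil 2, TCDD 1 and TCDD 2, it was at 5.15, 6.66, 5.05 and 7.14 in thymocytes. In emigrants it was at 4.57, 5.84, 6.18 and 6.24. Rag1, which marks immature thymocytes, was 9.33 to 10.21 in the thymocytes and 3.89, 9.81, 5.10 and 3.75 in emigrants oil 1, oil 2, TCDD 1 and TCDD 2, so the array of emigrants oil 2 carried a thymocyte-like Rag1 level. No gene of the 12394, and none of the 35, passed a Benjamini-Hochberg adjusted p of 0.05 in limma in any of the comparisons, so differences are given as values and none is a call.

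Promoter sequences are shown for 4 of the genes, each the 250 bases before the start site as RefSeq gives it (GRCm38.p6), read 5′ to 3′ on the gene's own strand. Capitals mark CACGTG, a palindromic E-box known as the binding motif of Myc with Max. Nop2, Imp4 and Utp18 are shown because they hold the motif before the start, and Ebna1bp2 because it had the smallest p of the genes followed in both comparisons between sources and does not hold it. Nop2 lies on the plus strand (chr6:125131633-125131882), Imp4 on the plus strand (chr1:34439579-34439828), Utp18 on the minus strand (chr11:93885767-93886016) and Ebna1bp2 on the plus strand (chr4:118620549-118620798).
Nop2: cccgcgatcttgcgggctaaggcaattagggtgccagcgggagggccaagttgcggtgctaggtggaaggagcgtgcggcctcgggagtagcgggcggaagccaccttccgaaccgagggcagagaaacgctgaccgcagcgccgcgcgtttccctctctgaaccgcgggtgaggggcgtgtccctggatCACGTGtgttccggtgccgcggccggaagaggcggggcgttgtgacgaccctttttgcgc
Imp4: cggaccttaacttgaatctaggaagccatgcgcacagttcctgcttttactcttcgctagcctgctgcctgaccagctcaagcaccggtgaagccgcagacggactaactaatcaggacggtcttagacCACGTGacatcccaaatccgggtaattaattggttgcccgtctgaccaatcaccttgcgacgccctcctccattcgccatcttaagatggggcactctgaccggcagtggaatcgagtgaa
Utp18: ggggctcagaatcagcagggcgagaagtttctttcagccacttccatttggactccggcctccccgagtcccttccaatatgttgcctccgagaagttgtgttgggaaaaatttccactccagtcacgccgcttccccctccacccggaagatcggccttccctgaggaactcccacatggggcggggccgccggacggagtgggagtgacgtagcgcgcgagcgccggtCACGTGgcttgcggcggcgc
Ebna1bp2: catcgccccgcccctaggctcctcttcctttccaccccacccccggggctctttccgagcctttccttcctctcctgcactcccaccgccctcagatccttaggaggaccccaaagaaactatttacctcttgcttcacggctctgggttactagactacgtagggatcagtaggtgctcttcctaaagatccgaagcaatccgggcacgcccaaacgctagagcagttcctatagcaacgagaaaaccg

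The motif began 121 bases before the start of Imp4, 60 before that of Nop2 and 20 before that of Utp18. In windows of 300 bases, 250 before the start and 50 after, CACGTG was present in 9 of the 31 genes followed that had an entry, or 29.0%, against 2187 of 27025 genes in the RefSeq table, or 8.09%. The other 6 genes with the motif were Ltv1, Utp20, Pes1, Tsr1, Nle1 and Wdr43, where it began 3 to 38 bases after the start. Fbl, Npm1, Bop1 and Rrs1 had no entry. A match describes these letters and is not evidence of a bound site.

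The emigrants had lower levels than the thymocytes for nearly all of the genes followed. Under oil, 34 of 35 had a lower mean in emigrants, where 49.6% of all genes did, and the median difference was -0.68 on the log2 scale (range -1.64 to 0.13) against 0.00 over all genes. Under TCDD it was 33 of 35, against 42.8% of all genes, with a median of -0.58 (range -1.96 to 0.53) against 0.04. The arrays compared share no sample between these comparisons, and 33 genes had a lower emigrant mean in both, against 31.3% of all genes. Because the cells were measured in bulk, fewer cells with high levels and less RNA per cell cannot be told apart.

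Both emigrant arrays lay below both thymocyte arrays for 24 of 35 genes under oil (19.6% of all genes) and for 20 under TCDD (15.5%), and for 16 genes under both (8.19%). All 4 emigrant arrays lay below all 4 thymocyte arrays for 14 genes, namely Polr1a, Fbl, Nop56, Nop10, Nolc1, Wdr75, Utp18, Utp20, Imp4, Ltv1, Ebna1bp2, Rrp1b, Rrp15 and Gnl3, against 6.04% of all genes. The reverse order was found for 0 of 35, against 6.87% of all genes. Some of the 14 separated only narrowly. The highest emigrant and lowest thymocyte arrays were at 6.00 and 6.01 for Utp20, 11.06 and 11.12 for Nop10 and 6.30 and 6.37 for Imp4. With any 1 array left out, the count of 14 became 14 to 19, against 7.00% to 8.92% of all genes.

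The adjusted threshold was passed by 0% of all genes in each comparison. At an unadjusted limma p under 0.05, 1186 genes (9.57%) differed between sources under oil and 1023 (8.25%) under TCDD. Lower in emigrants at that level were 13 of 35 under oil (5.09% of all genes) and 10 under TCDD (4.45%). Polr1a, Fbl, Nop56, Utp18, Ebna1bp2, Rrp15 and Gnl3 met it under both treatments, 7 of 35 against 2.44% of all genes. With 1 array left out, the counts under oil and under TCDD fell in some fits and rose in others. This held for the 35 genes and for all genes.

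**Figure D1:**
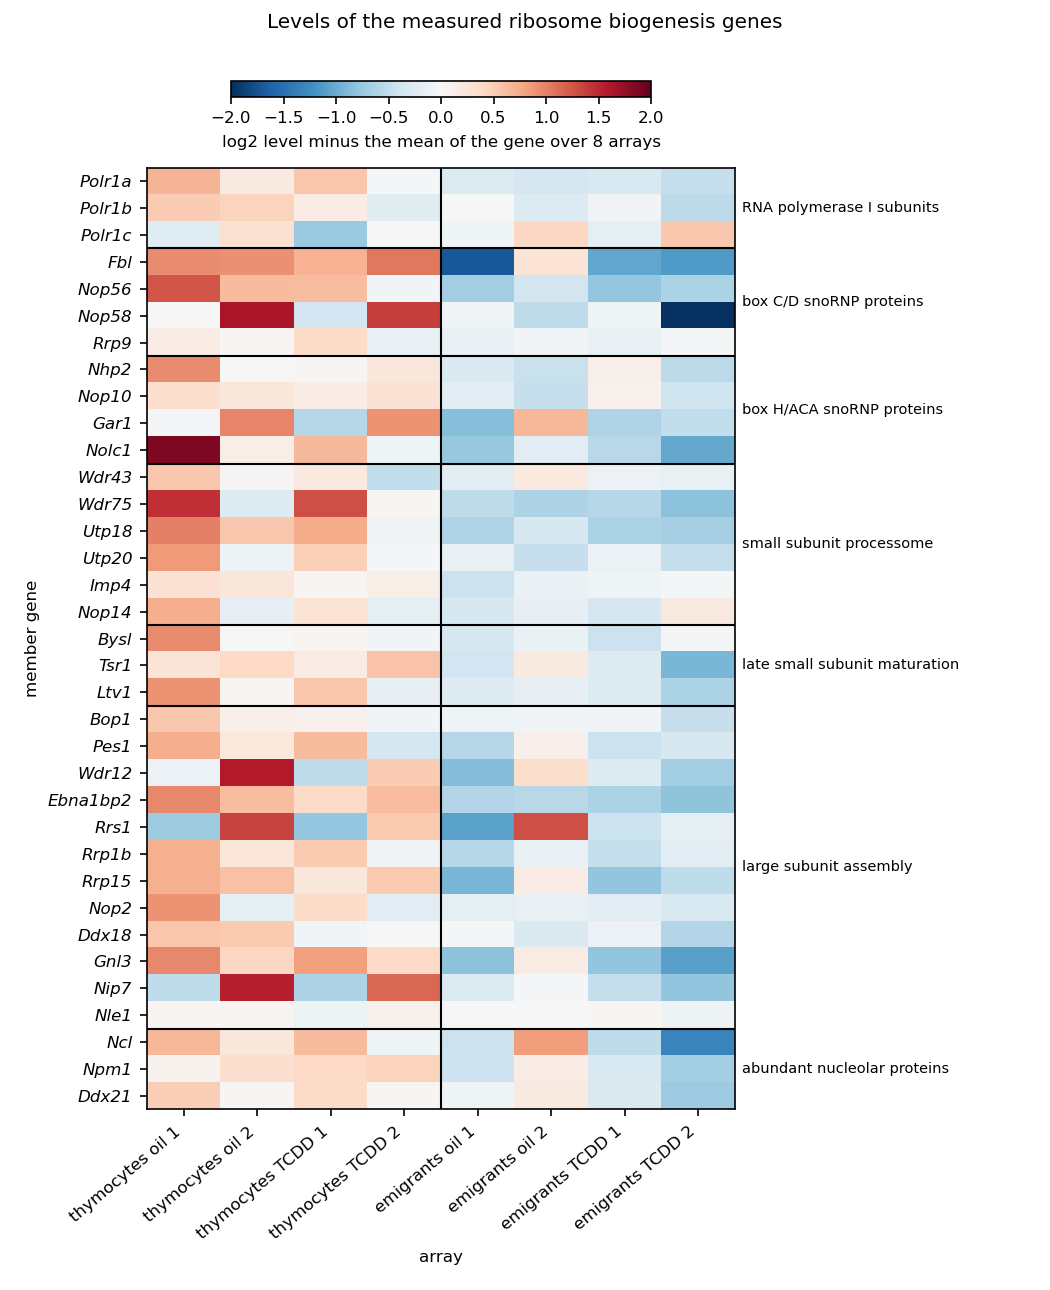
Log2 level of each of the 35 genes (rows, grouped by role) on each of the 8 arrays (columns), shown as the difference from that gene's mean over the arrays; red is above the mean and blue below. The 4 emigrant arrays to the right of the vertical line are bluer than the 4 thymocyte arrays for most genes, with exceptions such as Polr1c and Rrs1, and Nop58, Wdr12, Rrs1 and Nip7 differ strongly between the arrays of a thymocyte group.

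**Figure D2:**
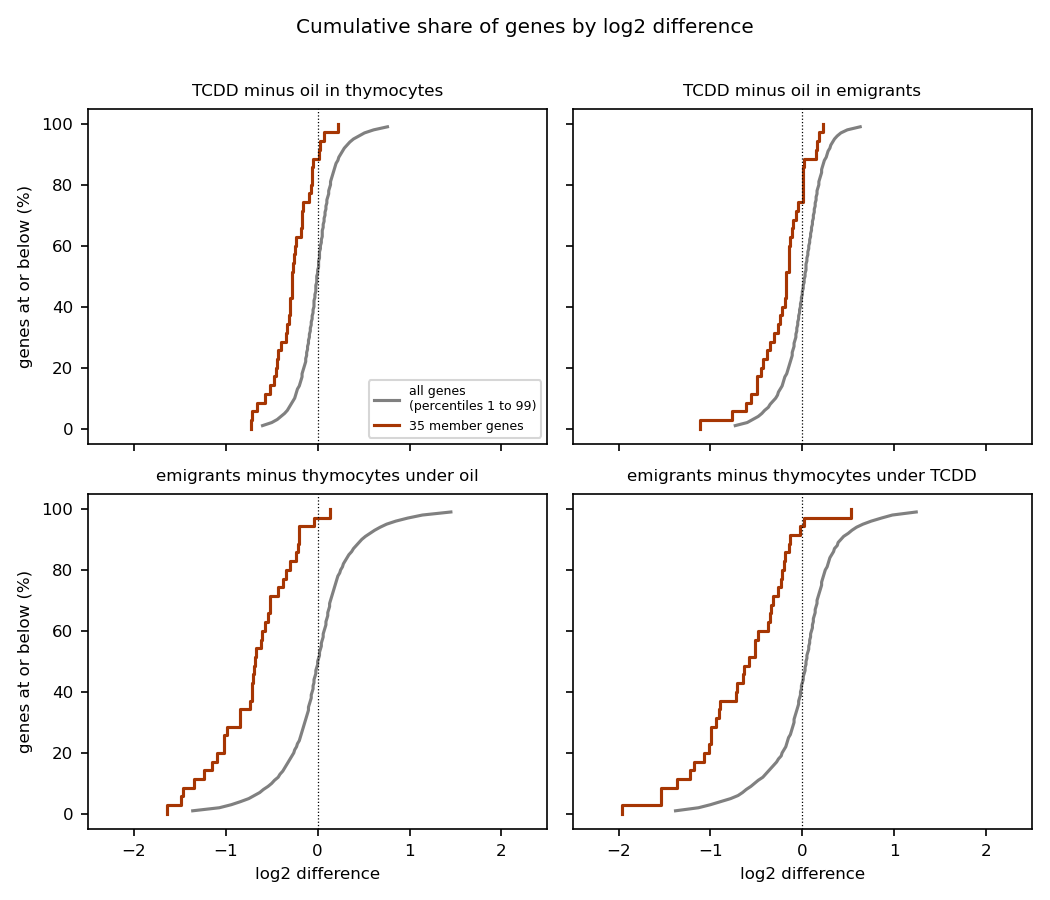
Cumulative share of genes (%) at or below each log2 difference, for the 35 genes followed and for all genes between the 1st and 99th percentile, in the 4 comparisons. The curve of the 35 genes lies to the left of that of all genes in each panel, with medians of -0.28, -0.18, -0.68 and -0.58 against -0.01, 0.03, 0.00 and 0.04.

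Among the RNA polymerase I subunits, the catalytic core subunits Polr1a and Polr1b had lower emigrant means and Polr1c, which RNA polymerase III also uses, did not. Polr1a levels were 6.58 and 6.08 in oil thymocytes, 6.45 and 5.86 in TCDD thymocytes, 5.62 and 5.56 in oil emigrants and 5.60 and 5.44 in TCDD emigrants. Every emigrant array was below every thymocyte array, and the difference between sources was -0.74 under oil (SE 0.25) and -0.63 under TCDD (SE 0.25). The 2 other, dimmer Polr1a probe sets gave 0.06 and 0.04 under oil and -0.08 and -0.03 under TCDD. For Polr1c the levels were 9.16, 9.71, 8.67 and 9.41 in thymocytes and 9.32, 9.82, 9.21 and 9.94 in emigrants, in the same order of groups. Its second array stood above the first in each group, the ranges overlapped, and the emigrant mean was higher by 0.13 (SE 0.38) under oil and by 0.53 (SE 0.38) under TCDD. A second probe set of Polr1c gave -0.52 and -0.48, of the opposite sign.

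The box C/D proteins had the largest median difference of the roles, -1.28 under oil and -1.27 under TCDD. Fibrillarin (Fbl), the methyltransferase of these particles, was at 9.75 and 9.73 in oil thymocytes, 9.50 and 9.86 in TCDD thymocytes, 7.12 and 9.08 in oil emigrants and 7.77 and 7.68 in TCDD emigrants. All emigrant arrays were lower, but emigrants oil 2 stood 1.96 above emigrants oil 1. The Fbl mean was 3.12-fold lower in emigrants under oil (log2 difference -1.64, SE 0.58, limma adjusted p 0.427) and 3.88-fold lower under TCDD (-1.96, SE 0.58, adjusted p 0.444). A second Fbl probe set gave -1.58 and -2.04.

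Nop56, a scaffold of the box C/D particle, was at 9.07, 8.44, 8.43 and 7.76 in the thymocytes and 7.12, 7.45, 7.04 and 7.18 in the emigrants. Its arrays did not overlap between the sources. The emigrant mean was 2.77-fold lower under oil (-1.47, SE 0.30, limma adjusted p 0.232) and 1.98-fold lower under TCDD (-0.99, SE 0.30, adjusted p 0.473). A second, dimmer probe set of Nop56 gave -0.42 under oil and 0.27 under TCDD. Nop58, the partner scaffold, was at 6.27, 7.90, 5.89 and 7.65 in thymocytes and at 6.21, 5.76, 6.18 and 4.28 in emigrants. The thymocyte arrays numbered 2 stood far above those numbered 1, and emigrants TCDD 2 stood far below emigrants TCDD 1. With this spread, the Nop58 differences of -1.10 and -1.54 carried an SE of 0.88. Rrp9, which binds the U3 snoRNA, lay between 6.50 and 7.02 on all arrays, with a difference of -0.20 in both comparisons (SE 0.20).

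The box H/ACA genes measured were the core proteins Nhp2, Nop10 and Gar1 and the particle chaperone Nolc1. Nop10 was tight within groups, at 11.32, 11.20, 11.12 and 11.26 in thymocytes and 10.76, 10.52, 11.06 and 10.58 in emigrants. All 4 emigrant arrays were lower, by 0.62 on average under oil (SE 0.20, limma adjusted p 0.398) and by 0.37 under TCDD (SE 0.20), and a second probe set gave -0.77 and -0.42. Nhp2 had differences of -0.84 and -0.34 (SE 0.35), with -1.44 and -1.10 from its second probe set. Gar1 differed by -0.57 and -0.72 (SE 0.67), with an oil emigrant array of 9.93 within the thymocyte range of 8.70 to 10.24. Nolc1 was at 7.26, 5.54, 6.05 and 5.31 in thymocytes and at 4.64, 5.19, 4.84 and 4.37 in emigrants. Its emigrant levels were all under the array medians, so no fold is given.

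Of the small subunit processome, Utp18 separated the sources most clearly. Utp18 was at 7.80, 7.32, 7.53 and 6.72 in thymocytes and at 6.19, 6.46, 6.15 and 6.12 in emigrants, 2.36-fold lower under oil (-1.24, SE 0.30, limma adjusted p 0.29) and 1.99-fold lower under TCDD (-0.99, SE 0.30, adjusted p 0.465). The lowest thymocyte array exceeded the highest emigrant array. Imp4, a component of the U3 particle, was at 6.62, 6.55, 6.37 and 6.45 in thymocytes and at 5.90, 6.19, 6.24 and 6.30 in emigrants. These ranges did not overlap, yet the difference was -0.54 under oil (SE 0.15, adjusted p 0.33) and -0.14 under TCDD (SE 0.15, adjusted p 0.875). The large scaffold Utp20 differed by -0.68 and -0.51 (SE 0.35), and Wdr75 by -1.15 and -1.36 (SE 0.62) with all its emigrant arrays under the array medians. Wdr43, which acts with Wdr75 early in precursor transcription, differed by -0.30 and 0.02 (SE 0.29) and was the only gene besides Polr1c without a lower emigrant mean under both treatments. Nop14 was dim, above the array median on 1 array, and differed by -0.52 and -0.13 (SE 0.35).

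The late small subunit factors Bysl, Tsr1 and Ltv1 had lower emigrant means under both treatments. Ltv1, which helps carry the small subunit precursor out of the nucleus, was at 6.51, 5.65, 6.17 and 5.44 in thymocytes and 5.35, 5.44, 5.33 and 4.98 in emigrants. Its nearest arrays from the 2 sources both print as 5.44, and the differences were -0.69 and -0.65 (SE 0.36). Bysl differed by -0.71 and -0.22 (SE 0.32). Tsr1 differed by -0.43 and -0.94 (SE 0.30), but it was under the array median on all 8 arrays.

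Large subunit assembly was the largest group, with 12 genes, and all 12 had a lower emigrant mean under both treatments. Ebna1bp2, an early assembly factor, was at 7.38 and 7.03 in oil thymocytes, 6.80 and 7.04 in TCDD thymocytes, 5.83 and 5.86 in oil emigrants and 5.78 and 5.61 in TCDD emigrants. The arrays of each emigrant group lay within 0.17 of each other and nearly a log2 unit below the lowest thymocyte array. Its mean was 2.56-fold lower in emigrants under oil (-1.35, SE 0.18, limma p 0.000215, adjusted p 0.184) and 2.34-fold lower under TCDD (-1.22, SE 0.18, p 0.000383, adjusted p 0.25). A second Ebna1bp2 probe set gave smaller differences, -0.49 and -0.21.

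Gnl3 (nucleostemin), a nucleolar GTP-binding protein of proliferating and stem cells, was at 9.54, 8.99, 9.40 and 8.96 in thymocytes and 7.76, 8.74, 7.79 and 7.49 in emigrants. Emigrants oil 2 again stood nearest to the thymocytes, and the mean was 2.03-fold lower under oil (-1.02, SE 0.37, limma adjusted p 0.446) and 2.91-fold lower under TCDD (-1.54, SE 0.37, adjusted p 0.378). Rrp15 was at 7.46, 7.33, 6.97 and 7.26 in thymocytes and 5.83, 6.90, 5.96 and 6.24 in emigrants. It did not overlap between sources, with differences of -1.02 in each comparison (SE 0.35). The helicase Ddx18 was at 7.81, 7.79, 7.21 and 7.25 in thymocytes and 7.23, 6.97, 7.15 and 6.68 in emigrants, a difference of -0.70 under oil (SE 0.20, adjusted p 0.327) and -0.32 under TCDD (SE 0.20). Its oil emigrants reached the level of its TCDD thymocytes.

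The PeBoW complex, which joins Pes1, Bop1 and Wdr12 in large subunit precursor processing, was less uniform. Pes1 differed by -0.71 and -0.51 (SE 0.39), Bop1 by -0.38 and -0.27 (SE 0.21) and Wdr12 by -0.99 and -0.48 (SE 0.68). Rrp1b differed by -0.84 and -0.58 (SE 0.28), with a second probe set at -0.24 and 0.01. The methyltransferase Nop2 differed by -0.52 and -0.35 (SE 0.37) and was above the array median on 2 arrays, while Nle1 was under it on all 8 and differed by -0.04 and -0.03 (SE 0.14). Rrs1 and Nip7, with differences of -0.21 and -0.19 (SE 0.96) and -0.67 and -0.90 (SE 0.78), had a wide spread within groups.

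At their brightest probe sets the 3 abundant nucleolar proteins had smaller differences between sources under oil than under TCDD. The brightest other probe set of Ncl and the second of Ddx21 did not repeat that order. The dimmer Ncl probe sets did, at -0.03 under oil and -0.23 and -0.09 under TCDD. The difference between the TCDD differences had a limma adjusted p of 1 for each of the 3 genes. Nucleophosmin (Npm1), a chaperone of ribosome assembly, was at 11.06 and 11.33 in oil thymocytes, 11.38 and 11.44 in TCDD thymocytes, 10.57 and 11.13 in oil emigrants and 10.69 and 10.31 in TCDD emigrants. Under oil the arrays overlapped (-0.34, SE 0.24), and under TCDD the mean was 1.88-fold lower (-0.91, SE 0.24, limma adjusted p 0.4), with -0.57 and -1.91 from a second probe set. Nucleolin (Ncl), an RNA-binding protein of the nucleolus, was at 9.54, 9.11, 9.51 and 8.80 in thymocytes and 8.45, 9.72, 8.37 and 7.57 in emigrants. Its highest array was emigrants oil 2, and the differences were -0.24 under oil and -1.18 under TCDD (SE 0.50), with -0.66 and -0.63 from its brightest other probe set. The helicase Ddx21 differed by -0.20 and -0.71 (SE 0.25), with -0.56 and -0.03 from its second probe set.

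**Figure D3:**
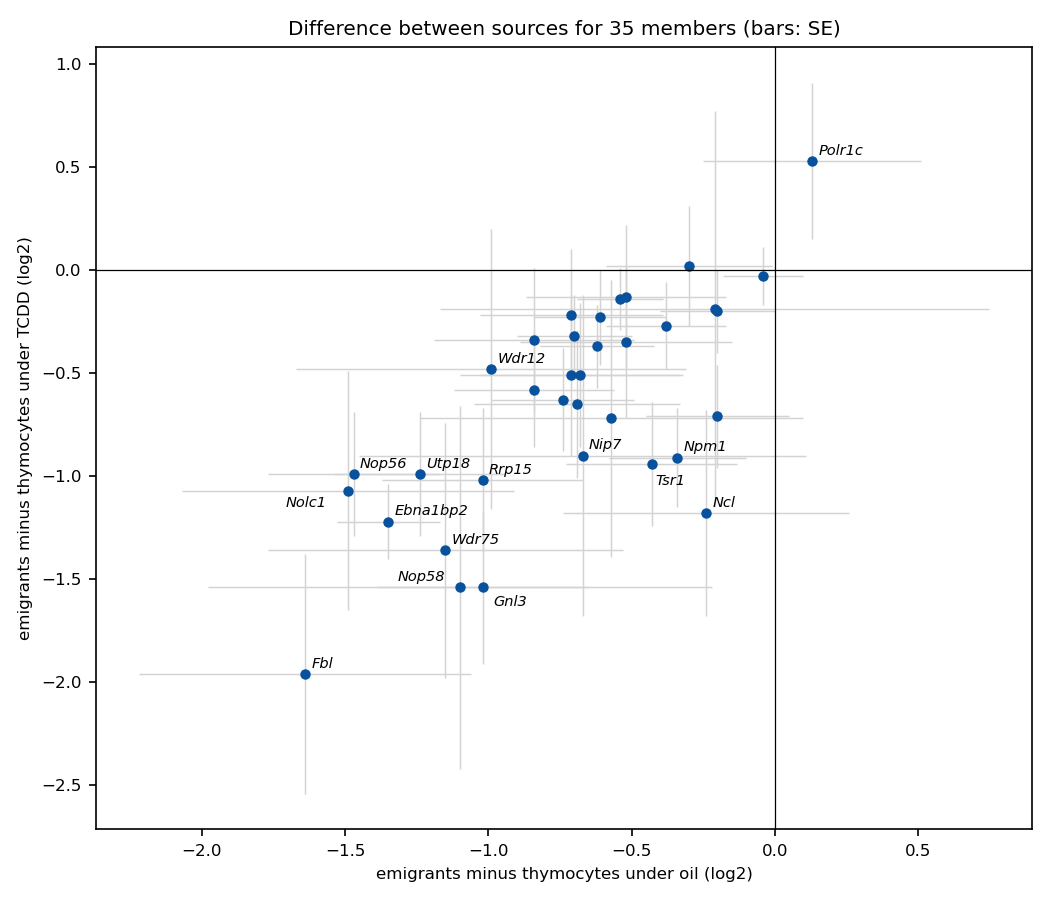
Emigrant minus thymocyte log2 difference under oil (horizontal) and under TCDD (vertical) for the 35 genes, with bars of 1 SE. Of the 35 points, 33 lie below 0 on both axes, Polr1c (0.13 and 0.53) lies above 0 on both, and Fbl (-1.64 and -1.96) is farthest from the origin.

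**Figure D4:**
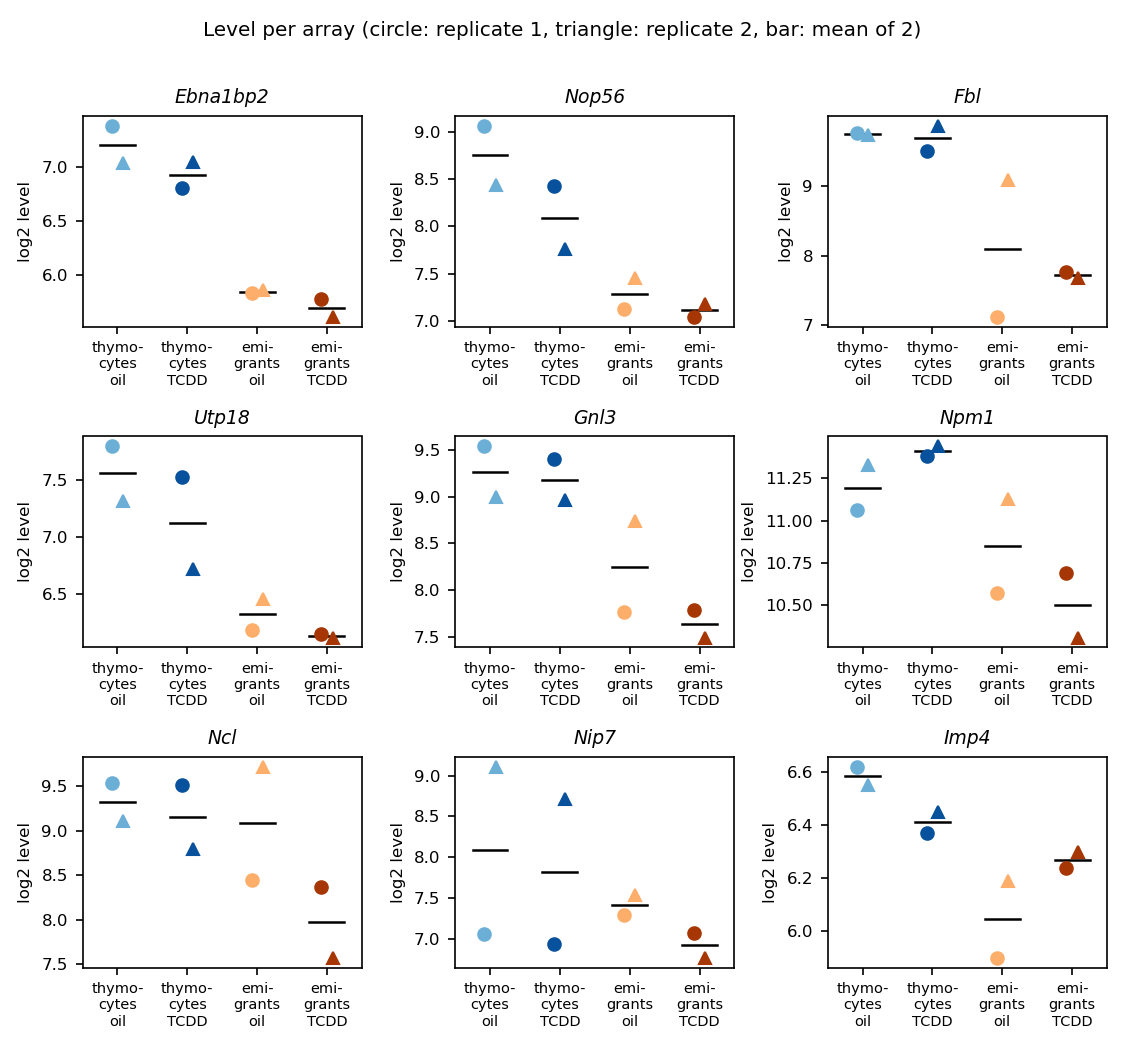
Log2 level on each array for 9 genes in the 4 groups, with circles for replicate 1, triangles for replicate 2 and bars for the mean of 2 (each vertical axis has its own range). Ebna1bp2, Nop56, Fbl, Utp18, Gnl3 and Imp4 have all 4 emigrant points below all 4 thymocyte points, whereas the thymocyte replicates of Nip7 lie far apart, at 7.06 and 9.11 after oil.

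In thymocytes, 31 of 35 genes had a lower mean after TCDD than after oil, against 51.4% of all genes, and the median difference was -0.28 (range -0.73 to 0.22) against -0.01 over all genes. That median was -0.05 without thymocytes oil 1, with 22 of 35 lower, -0.42 without thymocytes oil 2 and -0.18 without thymocytes TCDD 2. Both TCDD arrays lay below both oil arrays for 6 genes (11.4% of all genes), Polr1b, Nop56, Imp4, Bop1, Rrp15 and Ddx18, and above them for 1, Npm1 (9.78%). At an unadjusted limma p under 0.05 there were 194 genes (1.57%), with 1 of the 35 lower, Ddx18 (0.629% of all genes). Both the count over all genes and that of the 35 rose without thymocytes oil 2 or TCDD 1 and fell without TCDD 2. Without thymocytes oil 1 the count of the 35 fell and that over all genes rose.

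Ddx18 arrays after TCDD, at 7.21 and 7.25, lay well below those after oil, at 7.81 and 7.79, and the mean was 1.48-fold lower (-0.57, SE 0.20, limma p 0.0268, adjusted p 1). A second Ddx18 probe set gave -0.49. Polr1b was at 6.28 and 6.22 after oil and 5.93 and 5.53 after TCDD (-0.52, SE 0.23, adjusted p 1). Nop56 differed by -0.66 (SE 0.30), Bysl by -0.48 (SE 0.32), Wdr43 by -0.43 (SE 0.29) and Ebna1bp2 by -0.28 (SE 0.18), each with an adjusted p of 1, and the arrays of the last 3 overlapped. A second probe set of Wdr43 gave 0.12.

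In emigrants, 26 of 35 genes had a lower mean after TCDD, against 44.4% of all genes, with a median of -0.18 (range -1.11 to 0.22) against 0.03. Leaving out emigrants oil 2 gave a median of -0.05, leaving out TCDD 2 gave -0.09 and leaving out oil 1 gave -0.28. The TCDD arrays lay below the oil arrays for 7 genes (10.1% of all genes) and above them for 1, Imp4 (14.6%). The 7 were Utp18, Ltv1, Ebna1bp2, Nop2, Nip7, Ncl and Ddx21. At an unadjusted limma p under 0.05 there were 146 genes (1.18%), of which 79 were lower (0.637%) and 0 were among the 35. Without emigrants oil 1 or TCDD 1, the count over all genes and that of the 35 both rose. Genes of the 35 at that level were lower in these fits, and higher without emigrants oil 2.

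Nucleolin had the smallest p, with a mean 2.16-fold lower after TCDD (-1.11, SE 0.50, limma p 0.0648, adjusted p 1). Both of its oil arrays, at 8.45 and 9.72, exceeded the TCDD arrays at 8.37 and 7.57, the nearest only just, and the brightest other probe set gave -0.48. Ddx21 was at 7.74 and 8.01 after oil and 7.53 and 7.10 after TCDD (-0.56, SE 0.25, adjusted p 1), with 0.11 from its second probe set. Gnl3 differed by -0.61 (SE 0.37), Tsr1 by -0.49 (SE 0.30), Npm1 by -0.35 (SE 0.24) and Imp4 by 0.22 (SE 0.15), all with an adjusted p of 1. Overlap between oil and TCDD arrays was present for Gnl3, Tsr1 and Npm1.

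A lower mean after TCDD in both sources was found for 23 of 35 genes, against 23.0% of all genes, in comparisons that share no array. Non-overlapping lower arrays in both were found for 0, against 1.15% of all genes. The difference between the TCDD differences (emigrants minus thymocytes) was above 0 for 24 of 35 genes, against 56.7% of all genes, with a median of 0.13 against 0.04. Leaving out an array moved that median between -0.04 (without thymocytes oil 1) and 0.33 (without thymocytes oil 2). No gene passed the adjusted threshold for it, 146 (1.18%) had an unadjusted limma p under 0.05 and 0 of these were among the 35. The 6 genes with the smallest p were Imp4 (0.40, SE 0.22, p 0.113), Npm1 (-0.57, SE 0.34), Ddx21 (-0.50, SE 0.36), Ddx18 (0.38, SE 0.28), Ncl (-0.94, SE 0.70) and Tsr1 (-0.52, SE 0.43), each with a limma adjusted p of 1.

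The spread within groups was wide for these genes. In oil thymocytes the second array minus the first ranged from -1.72 to 2.05 over the 35 genes, and 8 genes differed by more than 1 log2 unit against 7.83% of all genes. In TCDD thymocytes 6 did (5.03% of all genes), in oil emigrants 6 (5.62%) and in TCDD emigrants 1 (6.09%). Nip7, a late large subunit factor, was at 7.06 and 9.11 in oil thymocytes, 6.94 and 8.71 in TCDD thymocytes, 7.29 and 7.54 in oil emigrants and 7.08 and 6.77 in TCDD emigrants. Its thymocyte arrays numbered 2 stood alone and the other 6 arrays lay between 6.77 and 7.54. Rrs1 was at 8.08, 10.14, 8.01 and 9.31 in thymocytes and 7.72, 10.08, 8.36 and 8.59 in emigrants, and Wdr12, Gar1 and Nop58 also had higher levels on the second array of both thymocyte groups. Wdr75, at 6.60 and 4.88 after oil and 6.44 and 5.17 after TCDD, had the opposite order.

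**Figure D5:**
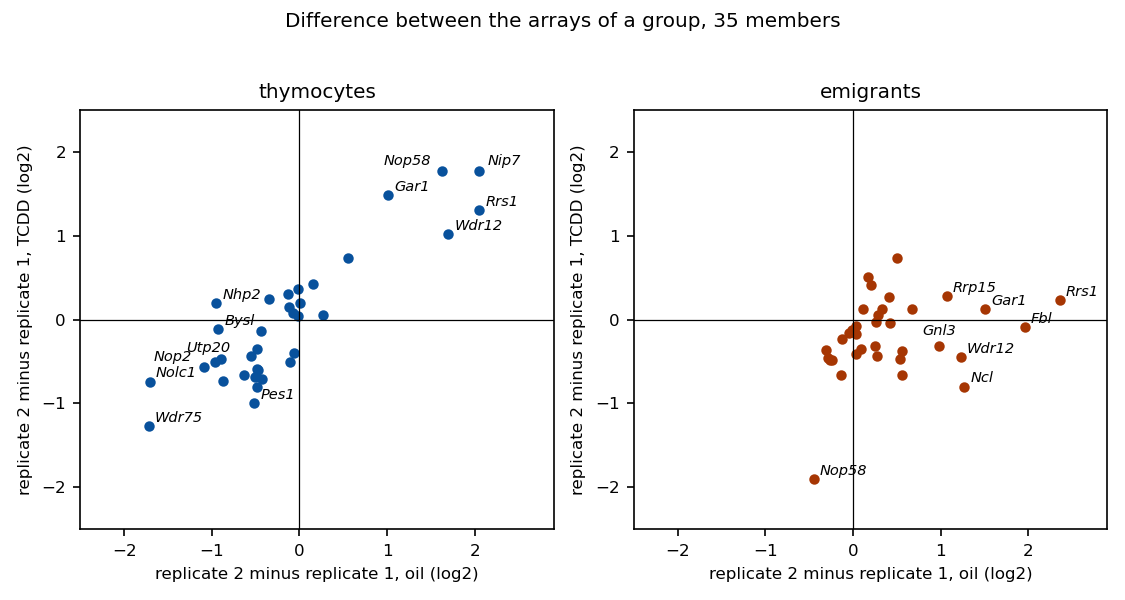
Second array minus first array (log2) in the oil group (horizontal) and in the TCDD group (vertical) for the 35 genes, in thymocytes (left) and emigrants (right). In thymocytes Nip7 (2.05 and 1.77), Rrs1 (2.05 and 1.31) and Nop58 (1.63 and 1.77) lie far up on both axes and Wdr75 (-1.72 and -1.27) far down, while in emigrants the spread is wider under oil, up to 2.36 for Rrs1.

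RNA quality probes also differed between arrays. The actin probe set near the 3′ end exceeded that near the 5′ end by 4.12 and 4.31 on the thymocyte arrays numbered 1 and by 3.12 and 3.06 on those numbered 2, and by 3.92, 3.34, 4.68 and 3.79 in the emigrants oil 1, oil 2, TCDD 1 and TCDD 2. The emigrant actin values lay within the thymocyte range except for TCDD 1. The same difference for Gapdh was 6.23 and 5.90 on the thymocyte arrays numbered 1, 4.97 and 4.78 on those numbered 2, and 4.81, 4.91, 4.97 and 5.32 in the emigrants in that same order. Gapdh thus set the emigrants below the thymocyte arrays numbered 1 and, unlike actin, was not higher on the emigrant arrays numbered 1. The part of RNA quality in the differences within groups or between sources was not tested.

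Other genes of the pathway were described by the same counts. Over all genes, 49.6% had a lower emigrant mean under oil and 42.8% under TCDD. At an unadjusted limma p under 0.05, 5.09% and 4.45% were lower. These shares stand beside the counts of each pathway list below. Of other small subunit factors, 32 of 38 were measured, and 26 had a lower emigrant mean under oil and 25 under TCDD (medians -0.26 and -0.27), with 4 and 3 lower at an unadjusted p under 0.05. Pwp2, a processome scaffold, differed by -0.66 under oil (SE 0.17) and Utp4 by -0.68 (SE 0.22). Of other large subunit factors, 43 of 48 were measured, 37 and 35 had a lower emigrant mean (medians -0.41 and -0.26) and 7 and 4 were lower at that p. Eif6, which keeps the subunits apart, differed by -0.51 (SE 0.18) and Las1l by -1.32 (SE 0.49) under oil.

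The other RNA polymerase I machinery had 13 of 17 genes measured, with 10 lower in emigrants under each treatment (medians -0.39 and -0.35) and 3 and 2 at an unadjusted p under 0.05. Its smallest p values under oil belonged to the polymerase subunits Polr1e (-0.51, SE 0.15) and Polr1d (-0.52, SE 0.16) and the initiation factor Rrn3 (-0.76, SE 0.29). The RNA exosome, which trims ribosomal RNA precursors, had 10 of 11 measured, with 9 lower under oil and 10 under TCDD (medians -0.50 and -0.37) and 3 and 5 at that p. Exosc1 differed by -0.81 in both comparisons (SE 0.20). The helicase Mtrex, which works with the exosome, differed between oil and TCDD emigrants by -0.91 (SE 0.15, limma p 0.00071, adjusted p 1). After TCDD in thymocytes, lower means were found for 23 of 32 other small subunit factors, 36 of 43 other large subunit factors, 9 of 13 of the polymerase machinery and 8 of 10 of the exosome. Over all genes that share was 51.4%.

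Myc was at 7.04 and 6.27 in oil thymocytes, 5.88 and 6.00 in TCDD thymocytes, 5.28 and 5.52 in oil emigrants and 5.68 and 4.86 in TCDD emigrants. Its oil thymocyte arrays were the highest of the 8, and the difference between sources was -1.26 under oil (SE 0.35, limma p 0.0104, adjusted p 0.323) and -0.67 under TCDD (SE 0.35). All 11 genes of the Myc network were measured, and 6 had a lower emigrant mean under oil and 5 under TCDD (medians -0.14 and 0.02). These counts were near the shares over all genes, 49.6% and 42.8%.

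Proliferation genes, of which 19 of 20 were measured, were also lower on average in emigrants. All 19 had a lower emigrant mean under oil and 18 under TCDD (medians -1.08 and -0.92), against 49.6% and 42.8% of all genes. At an unadjusted limma p under 0.05, 8 and 5 were lower, against 5.09% and 4.45% of all genes. Aurkb, a mitotic kinase, was 2.58-fold lower under oil (-1.37, SE 0.33, adjusted p 0.286) and Mcm5, of the replicative helicase, 2.98-fold lower (-1.57, SE 0.42, adjusted p 0.318). Their summed linear level was 9889 to 17654 in the thymocytes and 5462 to 9996 in the emigrants, the highest emigrant value being that of oil 2. In thymocytes 18 of 19 had a lower mean after TCDD (median -0.41), against 51.4% of all genes. The part of proliferation in the levels of the ribosome biogenesis genes was not tested.

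Marker lists of other cells also differed between arrays, and their part in the results was not tested. The summed linear level of 11 measured T lineage and thymocyte genes was 4109 to 4744 in thymocytes and 1907 to 3276 in emigrants, with Cd3d above the array median on every array. That of 7 NK cell genes was 2204 to 6564 in thymocytes and 1274 to 5446 in emigrants. The array median of their log2 levels was 5.64 to 6.13 and 6.01 to 7.01. At an unadjusted limma p under 0.05, 3 of the 7 under oil and 1 under TCDD were higher in emigrants. Of all 12394 genes, 555 and 472 were higher at that p. Under each treatment 5 of the 7 had a higher emigrant mean and 2 a lower one. Tbx21, a transcription factor of NK and some T cells, was at 4.57 to 5.09 in thymocytes and 5.81 to 7.01 in emigrants. The NK receptor gene Klrd1 was at 6.65 to 8.05 and 7.16 to 9.64. Gzma, the brightest of the list, was at 10.74 to 12.29 and 7.96 to 11.53, and Prf1 at 4.82 to 5.16 and 4.93 to 4.98. The summed level of 11 granulocyte genes was 1211 to 3899 and 684 to 6476, with the highest value in emigrants TCDD 1. For 9 macrophage and dendritic genes it was 1165 to 1538 and 1564 to 2976, and for 7 erythroid genes 261 to 326 and 377 to 1904. Among the erythroid genes Car2 was brightest in emigrants, at 5.92 to 6.33 in thymocytes and 7.73 to 10.43 in emigrants. Of the 7, 5 had a higher emigrant mean and 2 a lower one under each treatment. The summed level of 6 platelet genes was 262 to 689 and 286 to 1222, and that of 5 B cell genes 461 to 858 and 265 to 819. For the coreceptors Cd4, Cd8a and Cd8b1 it was 76.9 to 225 and 72.4 to 139. No log2 array value is a true 0, and Ncr1 of the NK list (4.72 to 5.23), Cd79a of the B cell list (3.94 to 4.23) and Hba-a1 of the erythroid list (4.53 to 4.74) lay under the array median on every array.

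Other probe sets gave a further reading of the comparison between sources. The 35 genes had 26 of them, of which 17 had a lower emigrant mean under oil and 17 under TCDD. For the 14 that were brighter on average than the median gene, 12 were lower under oil and 11 under TCDD. The exceptions were Wdr43 (0.06 and -0.69) and Nip7 (0.37 and 0.03), and under TCDD also Nop56 (0.27) and Rrp1b (0.01). For the 12 dimmer ones, 5 were lower under oil and 6 under TCDD. Higher under oil among these were probe sets of Wdr75 (0.34), Ddx18 (0.15), Rrp1b (0.13), Imp4 (0.12), Pes1 (0.07) and Polr1a (0.06 and 0.04).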

How the data were processed

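RNA of sorted cells was amplified and hybridised to Affymetrix arrays, per the labels' protocols, and the authors deposited RMA values on the log2 scale for 22690 probe sets on 8 arrays, RMA being named in the submitters' processing notes. Probe sets with several symbols (691) or no symbol (1606) were dropped, which left 20393. Current symbols came from a RefSeq table, matched by gene identifier. Each of 12394 genes was read at its probe set with the highest mean, with no filter on dim genes and no fold where both arrays of a group lay below their array medians. Levels are comparable between arrays of 1 gene, not between genes. A group-means model over the 8 arrays (limma 3.58.1, R 4.3.3, lmFit then eBayes) left 4 residual degrees of freedom. Its two-sided p-values were adjusted by Benjamini-Hochberg over all genes at a threshold of 0.05, and the code was checked on simulated data. The median residual SD was 0.223. The number of arrays limits the precision. Differences with tests are given for the 6 genes with the smallest p in each comparison, and values for the rest. For pathway lists the rule takes the 3 genes with the smallest p in each comparison, of which the text prints some. The genes and lists were chosen with earlier results of these data known. The AhR target check and the choice of promoters were made after seeing the values. Alternatives were another normalization or centring, a filter on dim genes, every or averaged probe sets, another variance prior, a replicate block, only the 4 arrays compared, emigrants oil 1 counted as TCDD, and leaving out each array. Figures were drawn with matplotlib 3.10.9.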

Additional observations from a re-analysis of the deposited data

Results flagged for a closer look

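For Imp4, of the small subunit processome, both TCDD arrays lay below both oil arrays in thymocytes (6.37 and 6.45 against 6.62 and 6.55) and above them in emigrants (6.24 and 6.30 against 5.90 and 6.19). The difference between the TCDD differences was 0.40 on the log2 scale, with an unadjusted limma p of 0.113 and an adjusted p of 1, so the difference was tested and did not pass. Such an opposite order of arrays was found for 314 of 12394 genes, or 2.53%. A dimmer Imp4 probe set gave -0.15 in thymocytes and -0.09 in emigrants.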

How the results depend on the processing

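With 2 arrays a group, 0 genes passed the adjusted threshold in the fits described, and no alternative except one called any of the 35 genes. With emigrants oil 1 counted as TCDD, 1 gene passed for TCDD in emigrants, 3 for the sources under oil, 18 for the sources under TCDD, including 1 of the 35, Fbl (-2.16, limma adjusted p 0.0474, against 0.444), and 1 for the difference between TCDD differences, and the TCDD difference of Imp4 in emigrants was -0.05. Averaging the probe sets of a gene gave 1 gene for the sources under oil and turned the Ddx21 difference between TCDD differences to 0.01. For the sources under TCDD, repeated quantile normalization gave 2 genes and the trend and robust prior 1. With an array left out, the number of genes past the threshold was 0 to 2 for TCDD in emigrants and 0 to 10 for the sources under TCDD. The median over the 35 genes for TCDD in thymocytes ranged from -0.42 to -0.05, and the genes with a lower difference between TCDD differences from 9 to 18 of 35. A fit without an array assumes that the lone array left varies like the other groups.

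The labels do not say what equal replicate numbers share, and the main fit did not pair arrays by number. Arrays of equal number had like deviations over all genes within thymocytes and within emigrants but not between the sources. The SE and p-values of the main TCDD comparisons leave out this likeness within a source. Over all genes the deviations of same-numbered arrays correlated at 0.76 between the thymocyte groups and 0.50 between the emigrant groups, and at -0.10 to 0.11 across sources. Over the 35 genes the correlation was 0.88 between the thymocyte groups, with 28 genes of the same sign. Between the emigrant groups it was 0.29, with 20 of the same sign, and across sources it was -0.20 to 0.39. With the replicate block within each source, 1 gene passed for TCDD in thymocytes and 790 genes had an unadjusted p under 0.05 (194 without it). Of the 35, 6 were lower at that p (1 without it). For TCDD in emigrants, 749 genes had such a p (146 without it) and 2 of the 35 were lower (0 without it). With the replicate block over all arrays, 17 of the 35 were lower at that p in emigrants under oil and 13 under TCDD (13 and 10 without it). Under TCDD 1 of the 35 was higher at that p. Over all genes, 1577 and 1446 had such a p in either direction (1186 and 1023 without it).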

Other observations

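The control probe sets of 18S ribosomal RNA, the RNA of the small subunit, differed between emigrant arrays. The 5′ probe set was at 7.07 and 4.01 in oil emigrants and 7.81 and 4.20 in TCDD emigrants, against 3.95 to 4.29 in the thymocytes. The middle probe set was at 7.22, 5.04, 7.94 and 4.99 in the emigrants against 4.30 to 5.14 in the thymocytes, and the 3′ probe set at 7.32, 6.35, 7.44 and 6.24 against 5.64 to 6.32. Both emigrant arrays numbered 1 were high for all 3 probe sets. The arrays measure amplified RNA, so these levels need not follow the cell's ribosomal RNA content, and no comparison was made with them.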
